A study of Mus musculus with 6 samples.

Results

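Vascular adhesion molecules of leukocyte attachment are the surface proteins by which white blood cells roll on, stick to and cross the vessel wall. Their RNA was measured in whole mouse retina at postnatal day 17 (P17). The genes were Sele, Selp, Selplg, Icam1, Icam2, Vcam1, Jam2, Jam3 and Cd44, which were taken by symbol and are 9 of the 22173 genes listed in each library. The oxygen-induced retinopathy (OIR) group held 3 libraries, OIR 1 to 3, from wild-type C57BL/6J pups kept in 75% oxygen between P7 and P12 and in room air for the following days up to P17. The Control group held 3 libraries, Control 1 to 3, from wild-type C57BL/6J pups that stayed in room air between P7 and P17. OIR is a model of the vessel loss and abnormal regrowth seen in retinopathies. No label tells whether replicate libraries are separate pups or pooled retinas, and p-values therefore cover the spread among these 6 libraries, part of which may be technical.

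Leukocyte attachment proceeds in steps. Selectins on activated endothelium catch passing cells by their sugar-bearing ligands, and integrins on the leukocyte then grip immunoglobulin-like receptors of the ICAM and VCAM type. The cell finally passes between endothelial cells, where junctional adhesion molecules sit. In the retina, leukocytes that adhere to vessels are known from diabetic and ischaemic disease, and several of these proteins are also made by glia, neurons or microglia.

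Values are RPKM, read numbers scaled to gene length and library size, so comparison of levels between genes depends on the lengths used. Whole reads and gene lengths were recovered from the values, and the libraries held 35615501 to 38025623 reads. The median ratio of recovered length to longest GENCODE transcript was 1.02 over tested genes. No recovered length of an adhesion gene equalled a GENCODE transcript. That of Jam3 was 4089 bases, where its longest transcript has 1942. The 6 rod photoreceptor markers summed to 12394 to 12858 RPKM in OIR libraries and to 10358 to 12687 RPKM in Control libraries. Lens genes stood apart in OIR 2 and Control 3, where they took 0.553% and 6.37% of reads, against 0.0149% to 0.0581% in the other 4 libraries. Genes of at least 1 RPKM in at least 3 libraries were tested with limma on log2(RPKM + 1), a scale that understates the change of low genes. Adjusted p-values are Benjamini-Hochberg values over the 12112 genes tested, with a threshold of 0.05.

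The adhesion genes spanned a wide range of levels, and Icam2 passed the test as higher in OIR. In OIR retinas the order by mean RPKM was Jam2, Jam3, Vcam1, Cd44, Selplg, Icam2, Icam1, Sele and Selp. In that order the ranges of Vcam1 and Cd44 overlapped, as did those of Selplg with Icam2, Icam2 with Icam1, and Sele with Selp. In Control retinas Icam1 stood before Icam2, and the overlapping neighbours were Cd44 with Selplg, Icam1 with Icam2, and Sele with Selp. Jam2 gave 61.4% to 65.6% of the summed RPKM of the 9 genes in OIR libraries and 66.2% to 73.2% in Control libraries. Of the 9 genes, 6 were tested, and Icam1, Sele and Selp were below the filter. Icam2 alone (1 gene) was higher in OIR and 0 were lower by limma, against a background of 11.6% of all tested genes higher, 7.22% lower and 18.8% in either direction. The median log2 fold change of the 6 tested genes was 0.23, while over all tested genes it was 0.03. All 6 values were positive, as were 55.3% over all tested genes, and that of Jam2 was negative under both other scalings.

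**Figure D1:**
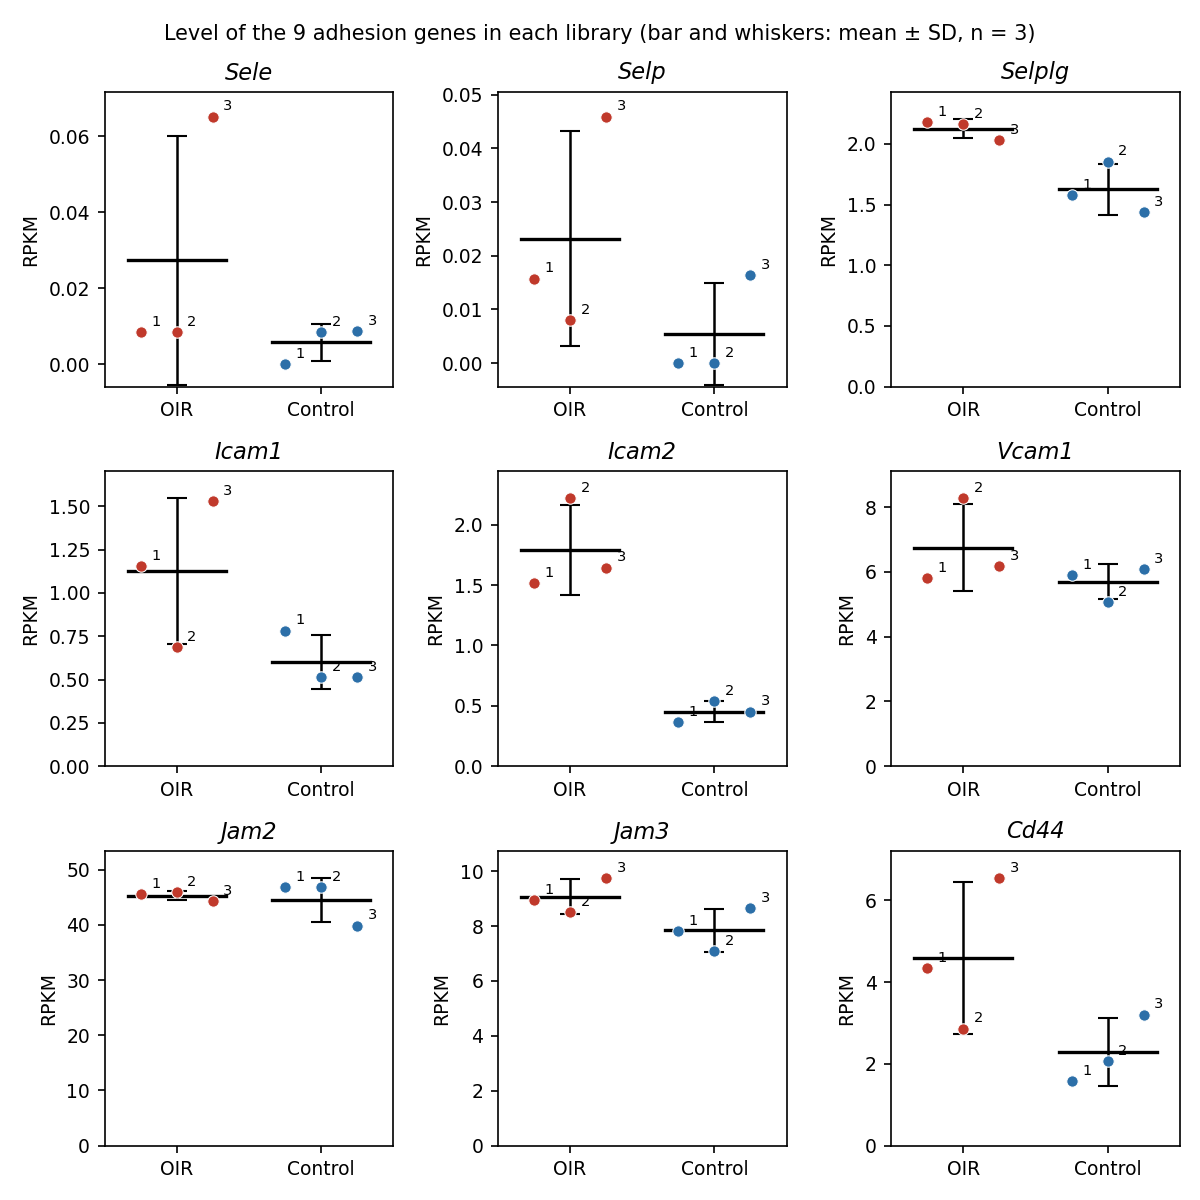
Level of each of the 9 adhesion genes in RPKM (vertical axes) in the OIR and Control libraries; points are libraries with their replicate number, bars and whiskers are the mean ± SD of 3 libraries. The OIR and Control points of Icam2 lie far apart, those of Selplg lie closer without overlap, and the selectins Sele and Selp lie near 0.

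The endothelial selectins were barely detected at this depth. Sele, which encodes E-selectin of cytokine-activated endothelium, had 0.00838, 0.00846 and 0.0652 RPKM in OIR libraries, against 0, 0.00836 and 0.00870 RPKM in Control libraries. These values rest on 1, 1 and 8 reads in OIR libraries and on 0, 1 and 1 reads in Control libraries. OIR 3 alone stood above the rest, and OIR 1 and OIR 2 lay within the Control range. Over the group, 10 reads in OIR against 2 in Control give a depth-adjusted ratio of 4.92 (95% exact interval 1.05 to 46.2, counting error only). A two-sided exact permutation test of the RPKM gave p = 0.4, where 3 libraries against 3 cannot go below 0.1. The 0 of Control 1 allows up to 3 reads, or 0.0251 RPKM, which is above the values of OIR 1 and OIR 2.

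Selp encodes P-selectin, which endothelium and platelets store in granules and bring to the surface on activation. It had 0.0157, 0.00794 and 0.0459 RPKM in OIR libraries, against 0, 0 and 0.0163 RPKM in Control libraries. The reads behind them were 2, 1 and 6 in OIR libraries and 0, 0 and 2 in Control libraries. OIR 3 was again the highest, and OIR 1 and OIR 2 lay below Control 3. The depth-adjusted ratio of 9 reads to 2 reads was 4.43 (95% exact interval 0.917 to 42.1), and the two-sided exact permutation p was 0.3. The limits that the zeros allow are 0.0235 RPKM in Control 1 and 0.0236 RPKM in Control 2, above OIR 1 and OIR 2 but below OIR 3. A difference in Selp was therefore not resolved at this depth. Gm16548 and Gm16587 overlap exons of Selp on the opposite strand. The summed level of 8 neutrophil markers was also highest in OIR 3, at 0.980, 0.191 and 2.21 RPKM in OIR libraries, against 0.0292, 0.0106 and 0 RPKM in Control libraries. S100a9, picked after its values were seen, gave 42 of the 62 OIR reads. S100a8, Retnlg, Ngp and Camp gave 10, 5, 4 and 1 OIR reads, each with 0 in Control. Ly6g, Mpo and Elane were at 0 in all OIR libraries, and Mpo and Elane gave 1 Control read each. The part of neutrophils in the selectin values was not tested.

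**Figure D2:**
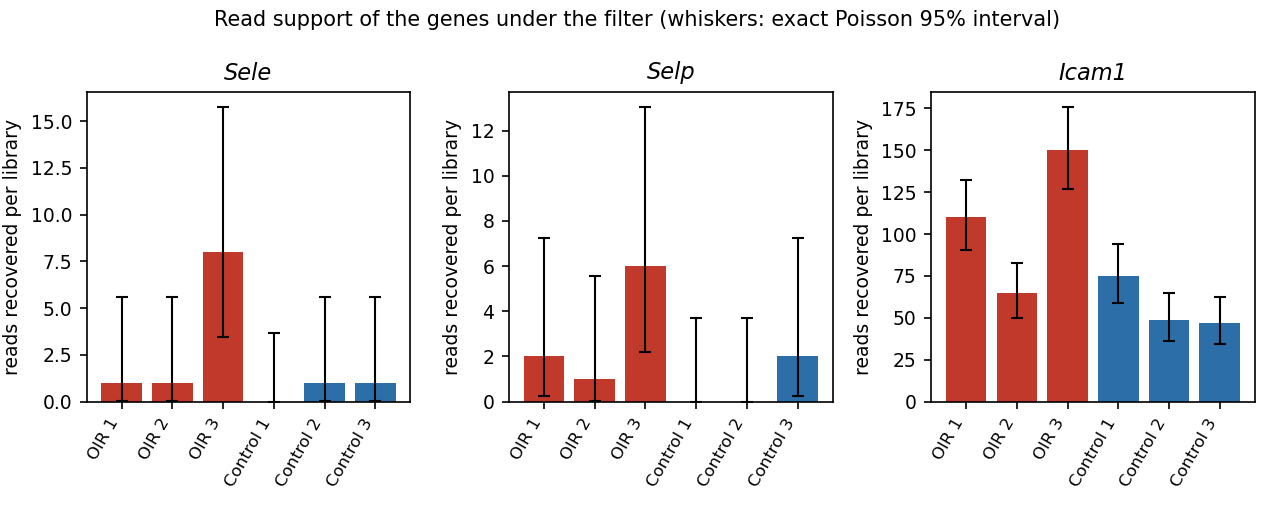
Recovered reads per library (vertical axes) of the 3 adhesion genes below the filter of the test, with OIR libraries left of Control libraries and whiskers for the exact 95% Poisson interval of each count. Sele and Selp reach 8 and 6 reads in OIR 3 and at most 2 in any Control library, while Icam1 has 47 reads or more everywhere.

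Selplg encodes PSGL-1, the ligand on leukocytes that P-selectin binds first, and microglia express it in the retina. It had 2.18, 2.16 and 2.03 RPKM in OIR libraries, against 1.58, 1.85 and 1.44 RPKM in Control libraries, from 208 to 217 reads and 138 to 185 reads per library. Every OIR library was above every Control library, which was so for 23.6% of all tested genes (38.7% in either direction). The means were 2.13 ± 0.0809 RPKM in OIR and 1.62 ± 0.211 RPKM in Control (SD, n = 3 each), a ratio of 1.31. The log2 fold change was 0.25 (SE 0.0892, 95% interval 0.06 to 0.45), and the limma adjusted p of 0.0691 missed the threshold. It also missed it under each of 14 other settings, with limma adjusted p between 0.0662 and 0.203. Of 10 microglial and macrophage markers, 9 were tested. By limma 7 were higher and 0 lower, against 11.6% and 7.22% of all tested genes. Among the 7, Fcrls passed the filter through its OIR libraries alone, so it had to differ. The summed level of the 10 markers was 87.0 to 114.4 RPKM in OIR libraries and 39.1 to 43.7 RPKM in Control libraries. Selplg as a share of that sum was 2.03%, 2.48% and 1.78% in OIR libraries and 4.03%, 4.58% and 3.29% in Control libraries, so relative to these markers it was lower in every OIR library (exact permutation p = 0.1, the smallest possible).

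Icam1, which leukocyte integrins of the beta-2 class bind for firm adhesion, varied widely within each group. Its level was 1.15, 0.689 and 1.53 RPKM in OIR libraries, against 0.782, 0.513 and 0.512 RPKM in Control libraries, from 110, 65 and 150 reads and from 75, 49 and 47 reads. OIR 2 lay below Control 1, so the groups overlapped. The means were 1.12 ± 0.422 RPKM in OIR and 0.602 ± 0.156 RPKM in Control (SD, n = 3 each), a ratio of 1.87. The coefficient of variation was 37.5% in OIR and 25.9% in Control, where counting error alone gives 9.61% and 13.2%. Only 2 libraries reached 1 RPKM, so Icam1 was outside the fit, and its two-sided exact permutation p was 0.2. With the filter lowered to 0.1 RPKM, its log2 fold change was 0.39 with a limma adjusted p of 0.0931, in a fit that called 10.4% of genes higher. With no filter, which called 6.73% higher, the adjusted p was 0.148. On recovered reads, limma-voom gave 0.85 (95% interval 0.12 to 1.58) with an adjusted p of 0.0969. Icam1 shares exonic positions with Gm47079 on the opposite strand, and whether the counting used strand is not given in the sources used here.

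Transcription of several adhesion genes is known to respond to inflammatory signals. Promoter sequences were looked up for all 9 members, and those of Sele, Selp, Icam1 and Cd44 are shown. They are the 4 members that RefSeq's promoter table for GRCm38.p6 matched, each with 250 bases before and 50 bases after the annotated start, read 5′ to 3′ on the gene's strand. Sele lies at chr1:164047984-164048283 (plus strand), Selp at chr1:164115014-164115313 (plus strand), Icam1 at chr9:21015690-21015989 (plus strand) and Cd44 at chr2:102901616-102901915 (minus strand). Capitals mark matches on either strand to the AP-1 motif TGANTCA, the hypoxia response core ACGTG, the TATA box TATAAA or the GC box GGGCGG, which reads CCGCCC from the other strand. The matches do not overlap each other in these windows.
Sele: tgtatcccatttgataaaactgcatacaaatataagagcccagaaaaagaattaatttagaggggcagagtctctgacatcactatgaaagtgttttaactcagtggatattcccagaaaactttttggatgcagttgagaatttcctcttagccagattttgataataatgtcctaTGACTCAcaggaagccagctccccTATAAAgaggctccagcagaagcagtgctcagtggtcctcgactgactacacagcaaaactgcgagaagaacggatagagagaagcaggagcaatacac
Selp: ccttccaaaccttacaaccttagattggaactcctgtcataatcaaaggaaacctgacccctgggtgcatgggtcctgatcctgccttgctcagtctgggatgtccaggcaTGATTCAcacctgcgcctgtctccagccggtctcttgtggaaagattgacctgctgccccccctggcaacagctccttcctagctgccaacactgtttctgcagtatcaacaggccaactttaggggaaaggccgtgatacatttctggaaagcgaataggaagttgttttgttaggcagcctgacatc
Icam1: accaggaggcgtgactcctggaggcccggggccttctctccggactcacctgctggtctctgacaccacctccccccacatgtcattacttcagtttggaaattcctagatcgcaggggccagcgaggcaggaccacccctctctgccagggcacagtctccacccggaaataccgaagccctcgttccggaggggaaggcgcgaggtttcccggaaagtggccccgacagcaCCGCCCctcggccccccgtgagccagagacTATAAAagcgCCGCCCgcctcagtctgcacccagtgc
Cd44: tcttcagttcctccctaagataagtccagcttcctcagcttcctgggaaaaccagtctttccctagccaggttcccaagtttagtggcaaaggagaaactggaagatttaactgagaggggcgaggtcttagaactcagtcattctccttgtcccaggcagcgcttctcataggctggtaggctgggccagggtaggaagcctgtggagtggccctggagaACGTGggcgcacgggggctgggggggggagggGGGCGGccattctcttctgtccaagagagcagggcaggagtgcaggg
The Sele window holds an AP-1 match 73 bases before the start and a TATA box 49 bases before it, and the Selp window an AP-1 match 139 bases before the start. The Icam1 window holds GC boxes at positions -17 and 24 and a TATA box at position 14, counted from the annotated start. The Cd44 window holds the hypoxia response core at -29 and a GC box at 4. Over all 32851 promoters of the table, 7.81% hold the AP-1 motif, 19.6% the hypoxia response core, 13.6% the TATA box and 35.7% the GC box. Over the 9692 promoters of tested genes, 4.33% hold the AP-1 motif, 26.0% the hypoxia response core, 6.93% the TATA box and 65.6% the GC box. The NF-kB consensus of 10 bases, also searched, is in 4.51% of all promoters and 4.94% of those of tested genes. It is in none of these 4 windows. The search allowed no mismatch, so sites that depart from this consensus would not be found and may be present. A match is a description of the sequence and was not tied to the RNA levels.

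Icam2 was 3.97 times as abundant in OIR retinas. It encodes ICAM-2, which endothelium makes constitutively, and which beta-2 integrins bind during transmigration. It had 1.52, 2.22 and 1.64 RPKM in OIR libraries, against 0.364, 0.539 and 0.453 RPKM in Control libraries, from 87, 126 and 97 reads and from 21, 31 and 25 reads. The lowest OIR library was well above the highest Control library. The means were 1.79 ± 0.373 RPKM in OIR and 0.452 ± 0.0875 RPKM in Control (SD, n = 3 each). The log2 fold change was 0.94 on the log2(RPKM + 1) scale (SE 0.110, 95% interval 0.70 to 1.18) with a limma adjusted p of 0.000590. Icam2 passed the filter through its OIR libraries alone, as 113 tested genes did, and such a gene had to differ: 100 of the 113 were called, all of them higher. Every library held at least 21 reads of Icam2, so it entered the limma-voom fit on recovered reads whatever its group. There the log2 fold change was 1.96 (SE 0.326, 95% interval 1.26 to 2.67) with an adjusted p of 0.00263, where 11.3% of 15032 genes were called higher and 18.3% in either direction. The call held under all 14 other settings, with adjusted p between 8.24e-05 and 0.00860.

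Other endothelial genes also rose in OIR. The ratio of Icam2 exceeded that of each of 10 endothelial markers, but not that of Mcam (4.15), an endothelial adhesion gene outside that list. Of 10 endothelial markers, all tested, 8 were higher and 0 lower by limma, against 11.6% and 7.22% of all tested genes. Among the 8, Erg passed the filter through its OIR libraries alone. The 8 include the junctional cadherin gene Cdh5 (log2 fold change 1.27), the receptor gene Tie1 (1.16), Pecam1 (0.98) and the sialomucin gene Emcn (0.97). The summed level of the 10 markers was 98.3 to 106.4 RPKM in OIR libraries and 57.9 to 61.9 RPKM in Control libraries, a ratio of 1.68. The ratios of single markers lay between 0.940 and 3.10, with a median of 2.13. The sum weighs abundant markers most, and Kdr, the most abundant, had a ratio of 1.29. Icam2 as a share of that sum was 1.43%, 2.21% and 1.67% in OIR libraries, against 0.588%, 0.880% and 0.782% in Control libraries. That share was 2.36 times as high in OIR without overlap of the groups, and its two-sided exact permutation p was 0.1, the smallest possible. In whole tissue, more cells of a type and more RNA per cell cannot be told apart.

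The tested genes nearest to Icam2 in profile over the 6 libraries were Bcl6b, a transcriptional repressor gene of endothelium, and Meox1, a homeobox gene. The root mean square distance of their centred log2(RPKM + 1) profiles from that of Icam2 was 0.112 for Bcl6b and 0.118 for Meox1, where the profile of Icam2 itself has a root mean square of 0.484. Bcl6b had 1.25, 1.46 and 1.25 RPKM in OIR libraries, against 0.329, 0.262 and 0.326 RPKM in Control libraries. Meox1 had 1.86, 2.04 and 1.66 RPKM in OIR libraries, against 0.633, 0.525 and 0.534 RPKM in Control libraries. Both passed the filter through their OIR libraries alone and were chosen for a matching profile, so that they were higher in OIR and highest in OIR 2, as Icam2 was, follows from the choice.

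**Figure D3:**
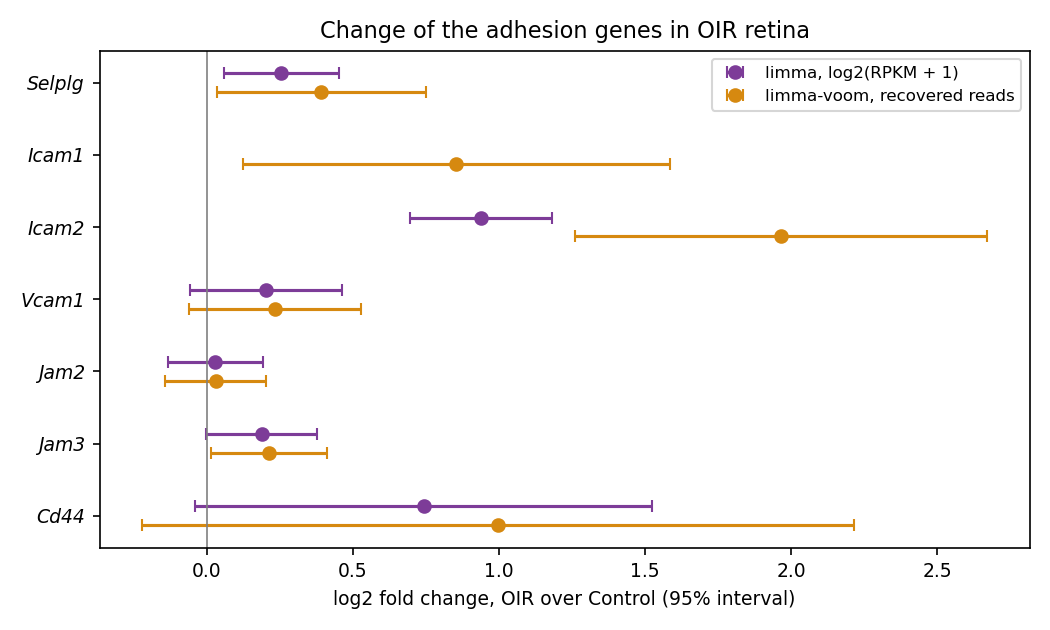
Log2 fold change, OIR over Control, with 95% intervals for the adhesion genes, from limma on log2(RPKM + 1) and from limma-voom on recovered reads. Icam2 lies farthest to the right in the fit on values at 0.94, and its interval of 0.70 to 1.18 is clear of 0, while the intervals of Vcam1, Jam2, Jam3 and Cd44 include 0 in that fit.

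Vcam1, the endothelial ligand of the integrin that pairs Itga4 with Itgb1, did not pass the test. It had 5.80, 8.27 and 6.18 RPKM in OIR libraries, against 5.90, 5.07 and 6.09 RPKM in Control libraries, from 639 to 1029 reads per library. OIR 2 was the highest library, and OIR 1 lay within the Control range. The means were 6.75 ± 1.33 RPKM in OIR and 5.69 ± 0.542 RPKM in Control (SD, n = 3 each), with a log2 fold change of 0.20 (95% interval -0.06 to 0.46) and a limma adjusted p of 0.256. Without OIR 2 the log2 fold change was 0.07, so this library carried most of the difference. Relative to the summed endothelial markers, Vcam1 was lower in OIR, at 5.46%, 8.25% and 6.28% in OIR libraries against 9.54%, 8.28% and 10.5% in Control libraries (exact permutation p = 0.1, the smallest possible). Relative to 7 summed Müller glia markers it was higher in OIR, at 0.403%, 0.498% and 0.428% in OIR libraries against 0.305%, 0.255% and 0.348% in Control libraries (exact permutation p = 0.1). Of those glial markers 2 were higher and 5 lower in OIR, against 11.6% and 7.22% of all tested genes. A single marker reached 1364 RPKM, where the 7 summed to at most 1987 RPKM in a library. That sum, also used for Jam2 below, therefore rests largely on 1 gene. Gm43109 overlaps its exons on the opposite strand.

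The junctional adhesion genes were the most abundant of the 9. Jam2 encodes a tight junction protein of endothelium that lymphocyte integrins can bind, and it is also made in neural tissue. Its level was 45.6, 46.0 and 44.3 RPKM in OIR libraries, against 46.9, 46.8 and 39.9 RPKM in Control libraries. Control 3, the library richest in lens reads, was the lowest, and the other Control libraries were above all OIR libraries. The log2 fold change was 0.03 (95% interval -0.13 to 0.19) with a limma adjusted p of 0.814, and its sign turned to -0.01 with median-of-ratios scaling, to -0.02 with upper-quartile scaling, to -0.05 without Control 3 and to -0.06 without OIR 2 and Control 3. Relative to the summed endothelial markers, Jam2 was 42.9%, 45.9% and 45.1% in OIR libraries against 75.7%, 76.4% and 68.8% in Control libraries. Relative to the summed Müller glia markers it was 3.16%, 2.77% and 3.07% in OIR libraries against 2.42%, 2.36% and 2.28% in Control libraries, so the direction depended on the markers used.

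Jam3 encodes a partner of Jam2 that sits at endothelial junctions and binds a leukocyte integrin. It had 8.94, 8.51 and 9.76 RPKM in OIR libraries, against 7.82, 7.08 and 8.65 RPKM in Control libraries. Control 3 was above OIR 2, so the groups overlapped. The means were 9.07 ± 0.634 RPKM in OIR and 7.85 ± 0.782 RPKM in Control (SD, n = 3 each), with a log2 fold change of 0.19 (95% interval -0.0014 to 0.38) and a limma adjusted p of 0.150. Without OIR 2 and Control 3, the libraries richest in lens reads, the log2 fold change was 0.29 with a limma adjusted p of 0.0233, in a fit that called 17.3% of tested genes higher. Gm48796 overlaps its exons on the opposite strand. Of 9 scaffold genes that join JAM proteins to the cytoskeleton, all tested, 0 passed in either direction, against 18.8% of all tested genes. The median log2 fold change of the 9 was -0.02. Among them Cgn, the cingulin gene, had a log2 fold change of -0.13 (limma adjusted p 0.444).

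Cd44, the receptor for hyaluronan that leukocytes use for rolling and that reactive glia also make, had the largest standard error of log2 fold change among the 6 tested adhesion genes. It had 4.34, 2.86 and 6.55 RPKM in OIR libraries, against 1.59, 2.06 and 3.21 RPKM in Control libraries, from 339 to 1432 reads per library. Control 3 was above OIR 2, so the groups overlapped. The means were 4.58 ± 1.86 RPKM in OIR and 2.28 ± 0.833 RPKM in Control (SD, n = 3 each), a ratio of 2.01. The log2 fold change was 0.74 (SE 0.308, 95% interval -0.04 to 1.52) with a limma adjusted p of 0.163. Without OIR 2 and Control 3 it was 1.17 with a limma adjusted p of 0.00419, and without OIR 3 it was 0.50 and not past the threshold (0.283).

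Icam1 and Cd44 shared the order of the OIR libraries, highest in OIR 3 and lowest in OIR 2. Gfap, the intermediate filament gene of astrocytes and reactive Müller glia, had the same order there. It had 61.3, 28.0 and 74.1 RPKM in OIR libraries, against 8.60, 7.50 and 5.65 RPKM in Control libraries. From Control 1 to Control 3 Gfap fell, as Icam1 did, while Cd44 rose. Gfap is among 5 astrocyte markers, of which 4 were tested, 2 higher and 0 lower, against 11.6% and 7.22% of all tested genes. As a share of their sum, Icam1 was lower in every OIR library (1.40% to 1.53% against 2.08% to 2.81%). The share of Cd44 overlapped between groups, with means of 5.89% in OIR and 9.40% in Control. The summed level of 7 genes of connective tissue outside the retina was 17.4, 13.5 and 21.7 RPKM in OIR libraries and 6.02, 14.1 and 20.6 RPKM in Control libraries, which is the order of Cd44 in both groups. The 5 smooth muscle markers summed to 29.2, 22.8 and 35.1 RPKM in OIR libraries and to 1.91, 16.9 and 26.7 RPKM in Control libraries. The part of glia or of tissue from outside the retina in the Icam1 and Cd44 values was not tested.

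**Figure D4:**
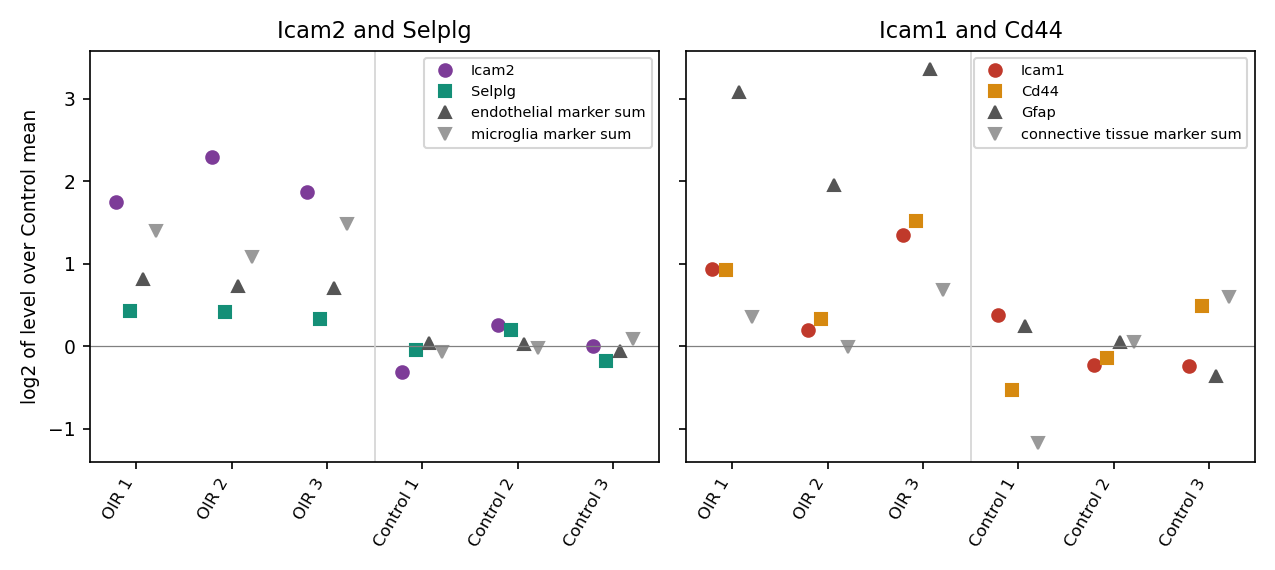
Log2 of the level in each library over the Control mean (vertical axis) for 4 adhesion genes beside marker levels, with OIR libraries left of Control libraries. Icam2 is highest in OIR 2, where Icam1, Cd44, Gfap and the connective tissue sum are lowest among the OIR libraries.

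The integrin genes that partner these molecules were partly measurable. In whole retina, which cells made their RNA was not tested. Of 9 integrin genes, 4 were tested, and 3 were higher in OIR and 0 lower, against 11.6% and 7.22% of all tested genes. The 4 had a median log2 fold change of 0.52. Itga9 encodes a chain that binds VCAM-1 and rose with a log2 fold change of 0.82 (limma adjusted p 0.00109). Itgb1, the common beta-1 chain, rose with 0.44 (0.0131), and Itgam, the alpha chain of the myeloid ICAM-1 receptor, rose with 0.60 (0.0189). The count was 1 without OIR 1 and 1 without Control 1. Itgb2, the beta chain that binds ICAM-1 and ICAM-2, was picked after its values were seen and was below the filter. It had 1.13, 0.834 and 1.58 RPKM in OIR libraries, against 0.212, 0.416 and 0.366 RPKM in Control libraries, without overlap. Separation of this kind, with OIR higher, held for 23.6% of all tested genes.

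Among 18 selectin ligands and the enzymes that glycosylate them, 10 were tested (median 0.32). Of these, 5 were higher and 0 lower, against 11.6% and 7.22% of all tested genes. Cd34, a sialomucin of endothelium and progenitors, had 11.7 ± 0.573 RPKM in OIR and 3.77 ± 0.310 RPKM in Control (SD, n = 3 each; log2 fold change 1.41, limma adjusted p 7.34e-06). Emcn, St3gal4, which adds sialic acid to selectin ligands, and B4galt1, a galactosyltransferase gene, rose with 0.97, 0.59 and 0.40. Without OIR 1 the count was 3. In the list of 17 other endothelial adhesion and transmigration genes, 16 were tested, with a median of 0.41. Of the 16, 10 were higher and 1 lower, against the same shares of all tested genes. The 4 with the smallest p were Cdh5 (ratio 3.10), Pecam1 (2.19), Aoc3 (3.07), which encodes vascular adhesion protein 1, and Mcam (4.15). Aoc3 passed the filter through its OIR libraries alone, so it too had to differ. The gene that was lower, Alcam, had 3.14 ± 0.472 RPKM in OIR and 4.71 ± 0.529 RPKM in Control (SD, n = 3 each), and it was not called without OIR 1 or without Control 1. Cdh5, Pecam1 and Emcn are also in the endothelial marker list, whose sum was higher in the same libraries.

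**Figure D5:**
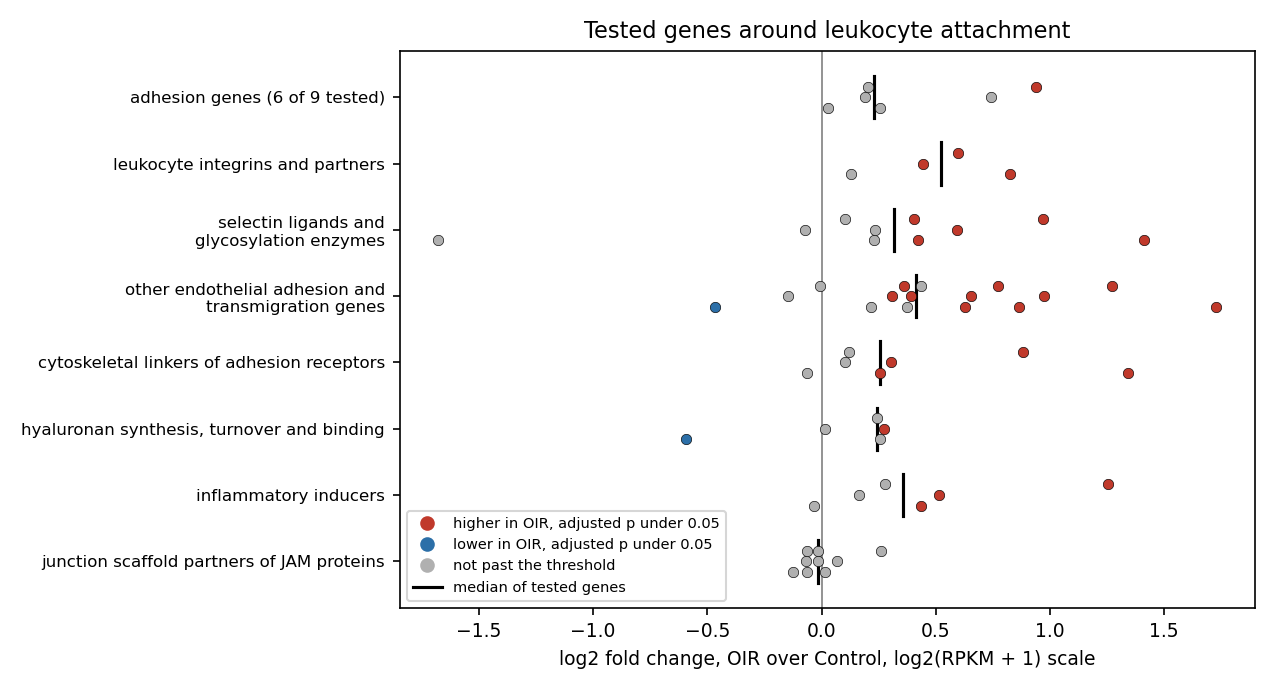
Log2 fold change, OIR over Control (horizontal axis), of each tested gene in the list of adhesion genes and in 7 lists of related genes (rows), with genes past the threshold red (higher in OIR) or blue (lower), the others grey, and a black bar for the median. Most points of the endothelial adhesion list lie right of 0, and the 9 JAM scaffold genes lie near 0 and are all grey.

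Of 7 genes that link adhesion receptors to actin, all tested, 4 were higher and 0 lower, against 11.6% and 7.22% of all tested genes. The median was 0.25, and the 4 were Flna at 0.88, Msn at 1.34, Actn4 at 0.30 and Actn1 at 0.25. Without OIR 1 the count was 1, and it was 2 without OIR 3 or without Control 1. Of 11 genes of hyaluronan, the ligand of CD44, 5 were tested. Hyal2, a hyaluronidase gene, was higher at 0.28 (limma adjusted p 0.0427), and Lyve1, a hyaluronan receptor gene, was lower at -0.59 (0.0161). The Hyal2 call was lost without OIR 1, without OIR 3 or without any 1 Control library, with either other scaling, with no filter and on recovered reads, and the Lyve1 call without Control 1 or without Control 2.

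Of 15 inflammatory inducers of endothelial adhesion genes, 6 were tested (median 0.36). Of the 6, 3 were higher and 0 lower, against 11.6% and 7.22% of all tested genes. The 3 were Rela, an NF-kB subunit gene (0.51, limma adjusted p 0.00703), Tnfrsf1a, a TNF receptor gene (1.25, 0.0123), and Irf1, an interferon-response factor gene (0.43, 0.0282). The count was 1 without OIR 1, without Control 1 or without Control 2. The cytokine genes Tnf, Il1b and Ccl2, picked after their values were seen, were below the filter. Tnf had 0.147, 0.0165 and 0.127 RPKM in OIR libraries, against 0.0163, 0 and 0 RPKM in Control libraries, from 18 reads and 1 read in all. Ccl2 had 0.772, 0 and 1.40 RPKM in OIR libraries, against 0.0334, 0 and 0.0697 RPKM in Control libraries, from 66 and 3 reads. Il1b had 0, 0.0403 and 0.213 RPKM in OIR libraries, against 0, 0 and 0.104 RPKM in Control libraries, from 13 and 5 reads. Ccl2 and Il1b overlapped between the groups and rested mostly on OIR 3.

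Blood leukocyte markers were scarce throughout. The 8 neutrophil markers summed to 62 reads in OIR libraries and 2 in Control libraries, and none was tested. The 4 blood monocyte markers gave 51 and 20 reads, the 4 B cell markers 71 and 33 reads, and the 6 T cell markers 429 and 181 reads over OIR and Control libraries. Of the T cell reads, Cd8a gave 250 in OIR and 94 in Control and Lck gave 156 and 76, while Cd3d was at 0 in all 6 libraries. These 3 genes were picked after their values were seen. At this depth no blood leukocyte list had a gene that reached the filter.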

How the data were processed

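RNA was sequenced from 6 libraries of whole retina, 3 OIR and 3 Control, grouped by the sample titles. The authors deposited 1 RPKM value per gene symbol and library, and the submitters' processing notes list TopHat2 2.0.12 and Bowtie2 2.0.6. Not given in the sources used here are the build, annotation, counter and use of strand, and the library protocol in the labels names material of another species, so the library type is uncertain. RPKM divides by each library's reads, so reads of 1 tissue in a library lower the values of its other genes.

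Whole reads came from the steps of the values (tolerance 0.02 read). Of 17953 genes above 0, 17952 came out whole, as did all 12112 tested genes, and 4220 listed genes were at 0 in all libraries. Counting intervals and limits from a count of 0 (3 reads) cover counting error only. Group was the term of a limma fit (3.58.1, R 4.3.3) on log2(RPKM + 1) with the trend and robust options. The fit was also run on simulated data, and the outcome is not reported here. Alternatives were 2 other scalings, a pseudocount of 0.1, 2 filters, a replicate block, each library left out, OIR 2 and Control 3 left out, and limma-voom on recovered reads of genes with at least 10 reads in 3 libraries.

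The members and lists were chosen with earlier results of these data known. From each list, up to 4 tested genes with the smallest adjusted p past the threshold were named, or up to 2 where none passed, and for Icam2 the 2 tested genes nearest in profile. A gene that this rule names is not reported here. Transcript overlaps were read from GENCODE M21 and promoters from RefSeq's GRCm38.p6 table, and promoters or proteins of the other members were not used here.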

Additional observations from a re-analysis of the deposited data

How the results depend on the processing

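Under the 14 alternatives, 81 of 84 values of the 6 tested adhesion genes stayed on their side of the threshold, and Icam2 stayed past it in each. The number of tested adhesion genes past it was 1 on leaving out any single library (1 to 1), 3 without OIR 2 and Control 3 (Icam2, Jam3 and Cd44) and 2 with a replicate block (Icam2 and Cd44, Cd44 with a limma adjusted p of 0.00851). Whether replicate numbers pair the libraries is not known. The deviations of same-numbered libraries correlated at 0.22, -0.44 and -0.41. Such values cannot settle it, since the 3 deviations of a gene within a group sum to 0. The block gave 1222 genes higher and 809 lower, ended the Hyal2 call and left 2 of the actin linkers higher. Over all genes, 1407 were higher and 875 lower in OIR, and leaving out 1 library gave 513 to 1754 higher and 212 to 1293 lower. Counts moved by over 1.5 times without OIR 1 (513 higher, 212 lower), OIR 3 (697, 348), Control 1 (658, 265) and, for lower genes, Control 2 (421). Lower genes numbered 529 with no filter, 1379 with upper-quartile scaling and 1943 without OIR 2 and Control 3. With median-of-ratios scaling 1283 were higher and 1312 lower, so 49.4% of calls were higher, against 61.7% in the values as deposited. With reads recovered or the filter at 0.1 RPKM, 6 inflammatory inducers were higher rather than 3, and 5 integrins rather than 3 with reads recovered. The causes were not tested. Depth limits Sele and Selp, with at most 8 reads in a library.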
